A study of Mus musculus with 4 samples.

Results

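The genes described here are 9 of the 24831 listed in the count tables: the bone morphogenetic protein (BMP) and growth differentiation factor ligands Bmp2, Bmp4, Bmp5, Bmp7 and Gdf11, and the secreted antagonists Nog (noggin), Chrd (chordin), Fst (follistatin) and Grem1 (gremlin 1). They were chosen by symbol, 5 as ligands and 4 as antagonists, and all 9 had enough counts to be tested among 13602 genes. RNA was sequenced from somitic gastruloids of the mouse, which are embryonic stem cell aggregates that elongate in culture and form somites and neural tissue. The cells of all libraries were the E14_triple reporter line with an HA epitope and the FKBP12F36V degron on the endogenous Zeb2 gene. The degron lets the small molecule dTAG-13 mark the tagged ZEB2 protein for degradation. All gastruloids started from 300 cells per well and received 3 μM CHIR99021, which activates the WNT pathway, at 48 h, and 10% Matrigel at 96 h. The dTAG-13 group also received 100 nM dTAG-13 at 72 h and at 96 h, while the titles call the other group untreated and its medium held DMSO according to the growth protocol. Each group held 2 libraries, numbered 1 and 2.

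BMP ligands are secreted dimers that bind type I and type II serine/threonine kinase receptors, which phosphorylate SMAD1, SMAD5 and SMAD9. Noggin, chordin and gremlin bind BMPs outside the cell and keep them from their receptors, and follistatin binds activins and, less tightly, several BMPs. In the embryo the balance of ligand and antagonist sets the border between neural and surface ectoderm and patterns mesoderm from the somites to the lateral plate. ZEB2 is also known as SMAD-interacting protein 1, a repressor that binds receptor-activated SMADs.

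Reads counted in genes came to between 11491330 and 12716172 per library. The labels do not say whether replicates came from separate cultures, so the p-values cover only library-to-library spread, which could be technical. Zeb2 mRNA was at 98.3 and 164 CPM (read counts scaled to a common depth with TMM factors) in untreated replicates 1 and 2 and at 103 and 108 CPM with dTAG-13. Since dTAG-13 acts on the protein, this level does not check the labels. The 8 somite markers examined were all detected, with a summed 401 and 261 CPM untreated, against 279.6 and 162 CPM after dTAG-13. The libraries differed by replicate number as well as by group. Lateral plate and cardiac markers, for example, summed to 70.4 and 106 CPM in the libraries numbered 1 (untreated, dTAG-13) and to 14.0 and 23.5 CPM in those numbered 2. In bulk RNA, fewer cells of a type and less RNA per cell cannot be told apart.

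With dTAG-13 the ligands Bmp2, Bmp4 and Bmp7 were higher in both libraries than in either untreated library, and the antagonists Fst and Chrd were lower. Bmp2 was about 2.01-fold and Bmp4 2.26-fold above untreated, Bmp7 1.24-fold above it, Fst 1.54-fold below it and Chrd 1.50-fold below it. Bmp5, Gdf11, Nog and Grem1 had overlapping groups. No member passed an adjusted p of 0.05 in edgeR's quasi-likelihood test over all genes, where the share of genes called was 0%. DESeq2, which called 0.34% of the genes it adjusted, called no member either (smallest adjusted p = 0.305, for Fst). At an unadjusted p under 0.05, 2 of the 9 members (Bmp2 and Fst) stood beside 3.52% of all genes tested in edgeR, and 3 of the 9 (with Bmp4) beside 2.99% in DESeq2. Groups did not overlap for 5 of the 9 members, and this was so for 26.2% of all genes (14.4% higher and 11.9% lower). With a term for the replicate number, under which 4.68% of all genes passed an adjusted p of 0.05, 3 of the 9 members passed (Bmp2, Bmp4 and Fst); the labels do not say that the number marks a shared culture, so these values are given with the other alternatives. With 2 libraries a group the smallest two-sided exact permutation p is 0.333, so no single gene could pass such a test.

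**Figure D1:**
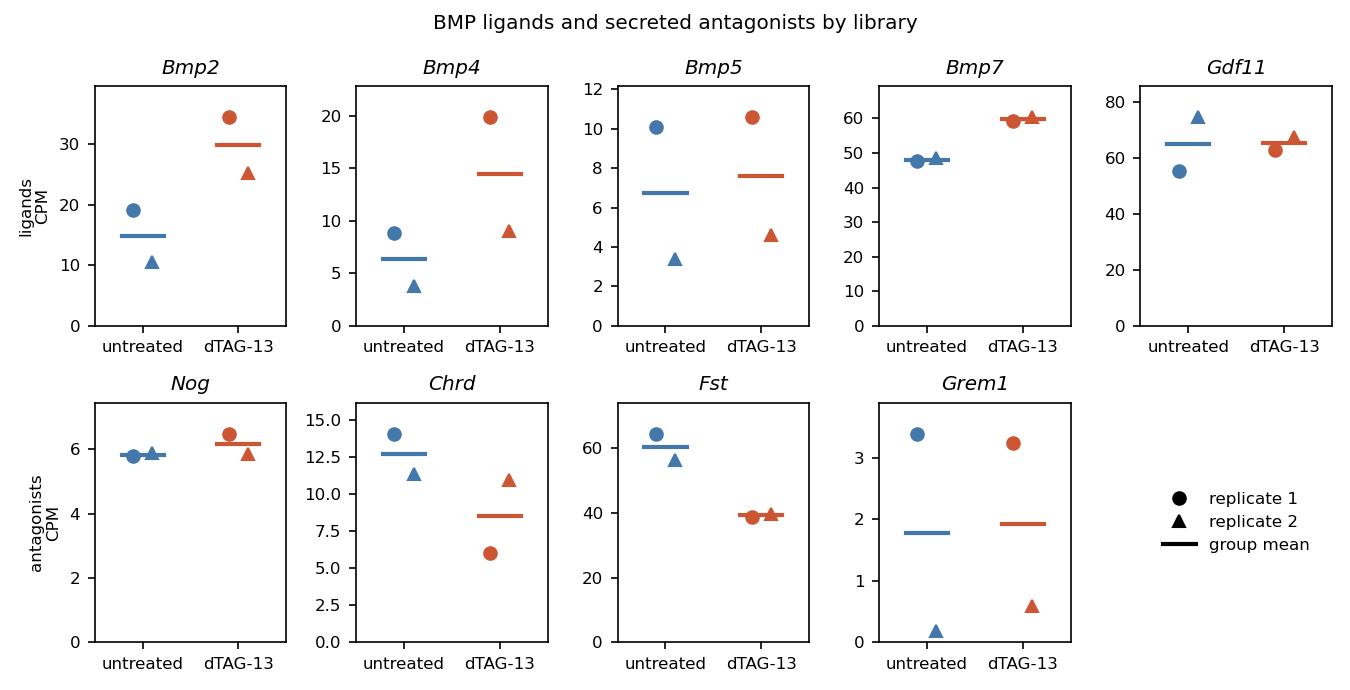
CPM of each gene in the 4 libraries, ligands in the upper row and antagonists in the lower; circles are replicate 1, triangles replicate 2 and bars the mean of the 2 libraries, each axis starting at 0. Bmp2, Bmp4 and Bmp7 lie higher and Fst and Chrd lower in both dTAG-13 libraries, while Bmp5 and Grem1 separate by replicate number.

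Bmp2 encodes a ligand used in heart, limb and bone formation and lies on the plus strand of chromosome 2 (133552159 to 133562896 in GRCm38.p6). It had 254 and 118 counts in untreated replicates 1 and 2 and 404 and 298 counts with dTAG-13, or 19.1, 10.5, 34.5 and 25.3 CPM in that order. Both dTAG-13 libraries were above both untreated ones, and the library numbered 1 was the higher of each pair. The group means were 14.8 ± 6.11 and 29.9 ± 6.48 CPM (SD, n = 2 each), and the fitted difference was 1.008 ± 0.33 on the log2 scale (SE; edgeR unadjusted p = 0.0235, adjusted p = 1.00). Within replicate number 1 the dTAG-13 library was 1.80-fold above the untreated one (95% exact interval 1.54 to 2.12, counting error only). Within number 2 it was 2.41-fold above (1.94 to 3.01). The fitted log2 value was 0.64 without untreated replicate 2 and 1.49 without untreated replicate 1.

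Bmp4, a ligand required for mesoderm formation and for the ventral and lateral mesoderm, lies on the minus strand of chromosome 14 (46383525 to 46390669). RefSeq gives its promoter in GRCm38.p6, and the 250 bases before the start site (chr14:46390670-46390919, minus strand) are shown because Bmp4 had the largest fold of the 9 genes and ZEB proteins are known to bind the letters CACCT. Capitals mark those letters, whose match lies on the opposite strand here and so reads AGGTG:

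Bmp4 upstream: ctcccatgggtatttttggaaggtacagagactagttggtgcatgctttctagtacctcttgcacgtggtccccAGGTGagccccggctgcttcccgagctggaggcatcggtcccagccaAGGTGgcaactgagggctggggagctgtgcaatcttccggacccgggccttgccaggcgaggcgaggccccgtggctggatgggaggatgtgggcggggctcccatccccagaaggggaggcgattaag

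The matches begin at positions -176 and -129 from the start site, and the first is part of the longer letters CACCTG, counted on both strands. Of all 32851 promoter entries of 300 bases in the table, 20.2% hold CACCTG and 51.9% hold CACCT, of which CACCTG is a part. A match is a description of the letters in this window, and binding was not measured in these libraries. The table also holds promoters of Bmp5, Gdf11, Chrd and Grem1. CACCTG was in none of these 4, and CACCT was in that of Grem1. The letters GGCGCC, known from GC-rich SMAD-binding elements and the same on both strands, were in 11.9% of all entries. They were in those of Chrd and Grem1. The Chrd entry (chr16:20732877-20733176) lies inside the Chrd span of 20731425 to 20742384, so its start site is an internal one and not the outer end of the gene. The matches are shown as the 30 bases around each, with the match in capitals (chr16:20732912-20732941, plus strand, and chr2:113758709-113758738, minus strand):

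Chrd: cgggccagagccGGCGCCtagggcactaaa

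Grem1: cgcggcggcgacGGCGCCtgaccaatggag

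Bmp4 had 118 and 43 counts untreated and 233 and 106 with dTAG-13, or 8.89 and 3.83 CPM against 19.9 and 9.001 CPM. The groups were separated only narrowly, since dTAG-13 replicate 2 stood just above untreated replicate 1. The log2 fold change was 1.18 ± 0.56 (SE; edgeR unadjusted p = 0.0874, adjusted p = 1.00). Within a replicate number the values differed little: 2.24-fold in number 1 (95% exact interval 1.78 to 2.81) and 2.35-fold in number 2 (1.64 to 3.44). Between the numbers, replicate 1 was 2.32-fold above replicate 2 in the untreated group and 2.21-fold in the dTAG-13 group, about the size of the difference between groups. The fitted log2 value was 0.49 without dTAG-13 replicate 1 and 1.90 without untreated replicate 1.

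Bmp7, a ligand of kidney and eye development (chromosome 2, 172868012 to 172940321, minus strand), was the steadiest of the 9 between replicates among those whose groups did not overlap. It had 47.6 and 48.4 CPM untreated, against 59.2 and 60.3 CPM after dTAG-13, means of 48.0 ± 0.561 and 59.7 ± 0.770 CPM (SD, n = 2 each). The log2 fold change was 0.32 ± 0.14 (SE; edgeR unadjusted p = 0.0542, adjusted p = 1.00), and it lay between 0.28 and 0.33 when any 1 library was left out. The within-number folds were 1.24 (95% exact interval 1.12 to 1.39) and 1.25 (1.11 to 1.40).

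Bmp5, a close relative of Bmp7 known from ear and skeletal development (chromosome 9, 75775365 to 75900316, plus strand), followed the replicate number. It stood at 10.1 and 3.38 CPM untreated, against 10.6 and 4.59 CPM after dTAG-13, so both libraries numbered 1 were above both numbered 2. Replicate 1 was 2.99-fold above replicate 2 untreated (95% exact interval 2.07 to 4.40) and 2.31-fold with dTAG-13 (1.66 to 3.24). The log2 fold change with dTAG-13 was 0.16 ± 0.66 (SE; edgeR adjusted p = 1.00) and turned to -0.41 when untreated replicate 2 was left out and to -0.56 when dTAG-13 replicate 1 was.

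Gdf11, which signals through activin type receptors and SMAD2 and SMAD3 and is known for setting the trunk-to-tail transition, lies on chromosome 10 (128880524 to 128891718, minus strand). It stood at 55.3 and 74.5 CPM untreated, against 63.0 and 67.6 CPM after dTAG-13, so that both dTAG-13 libraries lay between the untreated ones. The log2 fold change was 0.0096 ± 0.18 (SE; edgeR adjusted p = 1.00), with opposite signs in the numbers (0.19 in number 1 and -0.14 in number 2). Its sign was not stable: leaving out untreated replicate 1 gave -0.20 and leaving out dTAG-13 replicate 2 gave -0.06.

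Among the antagonists, Fst had the smallest p of the 9 genes. Fst (chromosome 13, 114452262 to 114458989, minus strand) had 856 and 632 counts untreated and 454 and 468 with dTAG-13, or 64.5 and 56.2 CPM against 38.7 and 39.7 CPM. The dTAG-13 libraries lay together, well below both untreated ones. The log2 fold change was -0.62 ± 0.15 (SE; edgeR unadjusted p = 0.00437, adjusted p = 0.790) and lay between -0.72 and -0.53 without any 1 library. Within numbers the untreated library was 1.66-fold (95% exact interval 1.48 to 1.87) and 1.41-fold (1.25 to 1.60) above the dTAG-13 one. Fst is also known as a gene of somites. Summed somite markers, which do not include it, were likewise lower with dTAG-13 within each number (401 to 279.6 and 261 to 162 CPM), and their part in the value of Fst was not tested.

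Chrd, made by the notochord and node in the embryo, lies on the plus strand of chromosome 16 (20731425 to 20742384). It stood at 14.1 and 11.4 CPM untreated, against 6.06 and 10.95 CPM after dTAG-13. The lower mean with dTAG-13 came from replicate 1: the untreated library was 2.33-fold above its dTAG-13 counterpart in number 1 (95% exact interval 1.76 to 3.10) and 1.04-fold in number 2 (0.808 to 1.338). The log2 fold change, -0.58 ± 0.35 (SE; edgeR unadjusted p = 0.141, adjusted p = 1.00), was -0.22 when dTAG-13 replicate 1 was left out and -1.09 when replicate 2 of that group was. Thpo overlaps Chrd on the opposite strand in the GENCODE M21 annotation of GRCm38, at 2.64 to 4.25 CPM. That annotation also places Gm15217 and Gm15222 over Bmp4, Gm26903 over Bmp5 and Gm47040 over Fst on the opposite strand, and Gm47723 over Bmp5 on the same one; their levels were not analysed here. The sources used here do not say whether the counting used strand, so reads of these members and of their opposite-strand partners cannot be told apart. The notochord and floor plate markers other than Chrd and Nog (Noto, Shh, Foxa2 and Foxj1) summed to 28.1 and 27.1 CPM untreated, against 34.0 and 47.7 CPM after dTAG-13. Noto was lower within both numbers (1.43 and 2.94 against 0.512 and 1.53 CPM), and Foxa2 was higher within both (16.7 and 15.1 against 23.4 and 28.5 CPM). Foxa2 is also one of the gut endoderm markers, of which 8 of 8 were higher with dTAG-13. The sum thus does not stand for notochord and floor plate alone. The part of notochord and floor plate cells in the value of Chrd was not tested.

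Nog, an inhibitor that sequesters BMP2, BMP4 and BMP7 (chromosome 11, 89300638 to 89302559, minus strand), was nearly level. It stood at 5.80 and 5.87 CPM untreated, against 6.48 and 5.86 CPM after dTAG-13, a log2 fold change of 0.08 ± 0.32 (SE; edgeR adjusted p = 1.00). The libraries held 66 to 77 counts of Nog, and the 95% exact intervals of the within-number ratios, 0.803 to 1.56 and 0.702 to 1.42, bound what counting at this depth could show.

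Grem1, an antagonist of limb and lateral mesoderm (chromosome 2, 113748675 to 113758648, minus strand), was the rarest of the 9 and the one that differed most between replicate numbers. It had 45 and 38 counts in the libraries numbered 1 (untreated, dTAG-13) and 2 and 7 in those numbered 2, or 3.39 and 3.24 CPM against 0.178 and 0.594 CPM. Replicate 1 was 19.0-fold above replicate 2 untreated (95% exact interval 4.98 to 162) and 5.45-fold with dTAG-13 (2.41 to 14.5). The fold with dTAG-13 was 0.956 in number 1 and 3.34 in number 2 (0.636 to 33.0), and the fitted log2 value, 0.08 ± 1.39 (SE; edgeR adjusted p = 1.00), ranged from -1.59 to 3.34 as single libraries were left out. The lowest came without dTAG-13 replicate 1 and the highest without untreated replicate 1, and the value was -0.82 without untreated replicate 2.

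**Figure D2:**
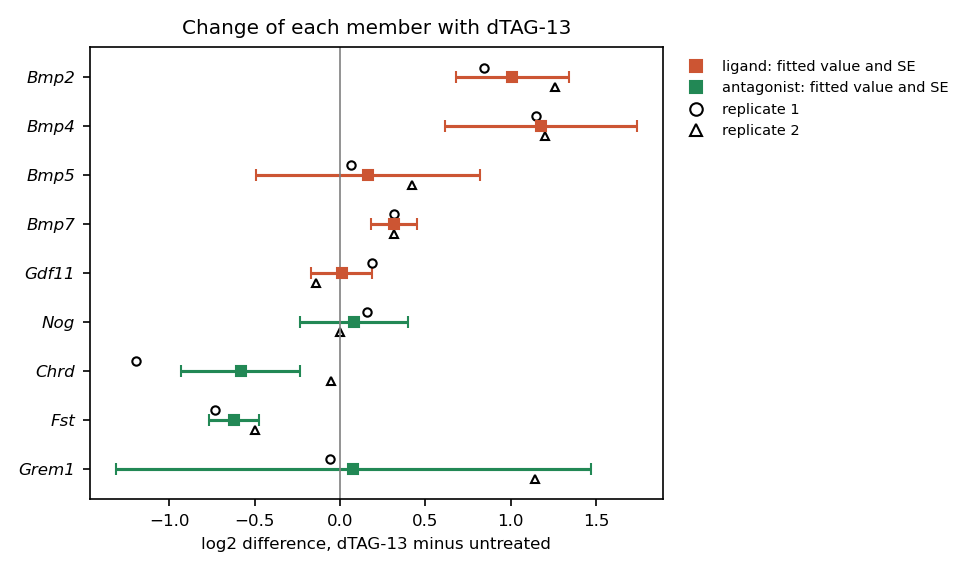
Log2 difference of dTAG-13 minus untreated for each gene, with squares and bars for the fitted log2 fold change and its SE, and open symbols for the difference within replicate number 1 (circles) and 2 (triangles). Bmp2, Bmp4 and Bmp7 lie to the right of 0 and Fst to the left in both numbers, while the symbols of Chrd and Grem1 lie far apart.

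As sets, the median log2 fold change was 0.32 for the ligands and -0.25 for the antagonists, beside 0.0040 over all genes tested. Single libraries moved both: leaving out untreated replicate 1 gave a ligand median of 1.148, and leaving out replicate 2 of the dTAG-13 group gave 0.62. The antagonist median became -0.72 when untreated replicate 2 was left out and -0.41 when replicate 1 of the dTAG-13 group was. The sign of the antagonist median depended on Fst and on Chrd alike. Nog and Grem1 stood at 0.08 each, Chrd at -0.58 and Fst at -0.62. The median was thus 0.08 with Fst left out, and it is also positive with Chrd left out instead. Of the 5 ligands, 4 (Bmp2, Bmp4, Bmp5 and Bmp7) were higher with dTAG-13 within both replicate numbers, as were 27.7% of all genes. For Bmp5 the ratio was 1.05 in number 1 (exact interval 0.814 to 1.35) and 1.36 in number 2 (0.879 to 2.11). Both intervals include 1, so the direction of Bmp5 was not separated from counting error. Of the 4 antagonists, 2 (Chrd and Fst) were lower within both numbers, as were 23.9% of all genes. The antagonist median of the differences within a number was -0.40 in number 1 and -0.03 in number 2, and the ligand median was 0.31 and 0.42. Summed per kilobase of exon, the ligands were at 37.3 and 35.9 CPM per kb untreated and at 51.4 and 43.9 CPM per kb with dTAG-13. The antagonists were at 20.5 and 17.6 against 14.0 and 14.0 CPM per kb. The ratio of ligand to antagonist on that scale was 1.82 and 2.04 untreated and 3.67 and 3.13 with dTAG-13, so the groups did not overlap. Most of the antagonist sum was Fst. With Fst left out, the other antagonists summed to 6.49 and 5.33 CPM per kb untreated and to 5.57 and 5.35 CPM per kb with dTAG-13, and the groups overlapped. The ratio of Bmp2 plus Bmp4 to Chrd plus Nog, a pairing picked after the values were seen, was 1.65 and 0.881 untreated and 3.87 and 2.14 with dTAG-13, a change of 2.35-fold in number 1 and 2.42-fold in number 2. These ratios are of mRNA levels and carry no test, since the members were chosen with earlier results known.

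**Figure D3:**
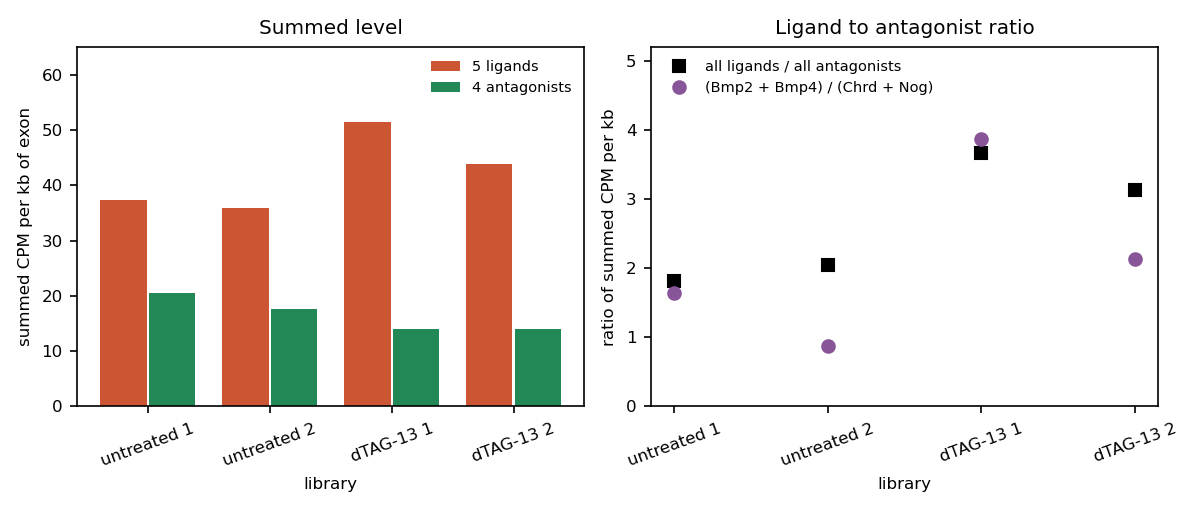
Left, CPM per kilobase of exon summed over the 5 ligands and the 4 antagonists in each library, from 0; right, the ratio of those sums (squares) and of Bmp2 plus Bmp4 to Chrd plus Nog (circles). The ligand to antagonist ratio is 1.82 and 2.04 in the untreated libraries and 3.67 and 3.13 in the dTAG-13 libraries.

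The order of the levels was read per kilobase of exon. In untreated gastruloids Gdf11 came first with a mean of 16.0 CPM per kb, then Fst with 13.2, Bmp7 with 11.9, Bmp2 with 4.17, Nog with 3.44, Bmp4 with 2.83, Chrd with 2.04, Bmp5 with 1.67 and Grem1 with 0.430. Gdf11 and Fst overlapped over their libraries, and each neighbouring pair from Bmp2 down to Bmp5 overlapped as well. Fst, Bmp7 and Bmp2 were separated from one another, as was Grem1 from Bmp5. With dTAG-13 the order was Gdf11 (16.1 CPM per kb), Bmp7 (14.9), Fst (8.55), Bmp2 (8.41), Bmp4 (6.42), Nog (3.64), Bmp5 (1.88), Chrd (1.36) and Grem1 (0.462). Fst was thus above Bmp7 in both untreated libraries and below it in both dTAG-13 libraries, and in the latter it overlapped with Bmp2. Bmp2 and Bmp4 overlapped with dTAG-13 as well, as did Bmp5 and Chrd, while the other neighbouring pairs were separated.

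The rest of the pathway was read from lists by role. Among 18 other BMP, GDF and activin ligand genes only 4 had enough counts to be tested, with 2 higher and 2 lower. Bmp3, which acts against other BMPs in bone, was the 1 gene of them at an unadjusted p under 0.05 in edgeR, where 3.52% of all genes were. It had 27 and 13 counts untreated and 4 and 3 with dTAG-13 (log2 fold change -2.39 ± 0.63, SE; edgeR unadjusted p = 0.00757, adjusted p = 0.931). Gdf10, a relative of Bmp3, was at 2.26 and 2.40 CPM untreated, against 1.11 and 1.36 CPM after dTAG-13 (log2 fold change -0.91 ± 0.45, SE; edgeR unadjusted p = 0.0855). Groups did not overlap for these 2 of the 4 genes tested, both lower, as was so for 11.9% of all genes. Both were named after their values were seen. Bmp6 was at 3.92 and 1.42 CPM untreated, against 9.13 and 1.53 CPM after dTAG-13, and Gdf3, a ligand of pluripotent cells, at 6.78 and 9.88 against 7.93 and 14.4 CPM. Of 13 other antagonists and BMP-binding proteins tested, 4 were higher and 9 lower, with a median log2 fold change of -0.13 and 0 at an unadjusted p under 0.05 in edgeR. The median became 0.0548 when untreated replicate 1 was left out and -0.64 when replicate 2 of the dTAG-13 group was. Bmper, a secreted BMP-binding protein, stood at 11.5 and 3.65 CPM untreated, against 19.4 and 12.5 CPM after dTAG-13 (log2 fold change 1.06 ± 0.58, SE). Smoc1, a matricellular BMP antagonist, was at 102 and 124 against 64.8 and 105 CPM, and Fstl4, a follistatin-like gene, at 3.77 and 4.004 against 2.39 and 2.802 CPM. None of these passed over all genes with the group as the only term. With the term for the replicate number Bmp3, Bmper, Smoc1 and the antagonist Sost did (edgeR adjusted p = 0.0029, 3.5e-05, 0.0306 and 0.00103). Of all genes tested, 4.68% passed in that fit, which has 1 residual degree of freedom. The groups of Smoc1 and Sost overlapped.

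Chordin is cleaved by tolloid proteases such as Bmp1 and Tll1, whose activity SFRP proteins and Olfml3 modulate. Tll2, of the same family, was listed with them. Of the 7 genes of this list, 1 was higher and 6 lower, with a median log2 fold change of -0.33. The sign of this median depended on single libraries, since the value became 0.0884 when untreated replicate 1 was left out and 0.0469 when replicate 2 of the dTAG-13 group was. Olfml3 stood at 5.12 and 5.25 CPM untreated, against 3.58 and 1.61 CPM after dTAG-13. Tll1 was at 3.09 and 1.25 against 4.18 and 1.87 CPM, and Pcolce, an enhancer of procollagen cleavage by these proteases, at 7.68 and 3.20 against 3.16 and 4.67 CPM. The medians of the receptors and SMADs were near 0. Of 12 receptor and co-receptor genes 4 were higher and 8 lower (median -0.0075), and of 6 SMAD effectors 2 were higher and 4 lower (median -0.01). Among receptors, Acvr1b, an activin type I receptor, stood at 49.6 and 37.99 CPM untreated, against 57.9 and 50.4 CPM after dTAG-13. Rgma, a BMP co-receptor, was at 64.9 and 172 against 45.5 and 101 CPM (log2 fold change -0.69 ± 0.69, SE; the 1 receptor gene that passed with the term for the number, adjusted p = 0.000209), and Bmpr1b, a BMP type I receptor, at 4.67 and 5.61 against 7.42 and 4.84 CPM. Smad1, Smad4 and Smad3 had log2 fold changes of 0.13 ± 0.17, -0.02 ± 0.14 and -0.05 ± 0.16 (SE). Smad9, a BMP SMAD that is also counted among the BMP responses, had the smallest p of the list and few counts: it was at 1.66 and 0.623 CPM untreated, against 3.07 and 0.934 CPM after dTAG-13 (log2 fold change 0.79 ± 0.75, SE; edgeR unadjusted p = 0.328), and was named after its values were seen.

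Of 18 genes listed as BMP responses, 17 were higher within both replicate numbers and 1 (Atoh8) was lower, with a median log2 fold change of 0.89, beside 27.7% of all genes that were higher in both. The median became 0.33 when dTAG-13 replicate 1 was left out and 1.455 when replicate 1 of the untreated group was. Groups did not overlap for 9 of them, all higher, against 14.4% of all genes. At an unadjusted p under 0.05 in edgeR, 5 were higher (Msx2, Tbx3, Bambi, Smad6 and Dlx5), where 2.29% of all genes were; none was lower there, where 1.23% of all genes were, and 0 passed over all genes. DESeq2 called Msx2 and Dlx5 (adjusted p = 0.00381 and 0.0104), beside 0.34% of the genes it adjusted. With the term for the replicate number, edgeR called 14 of the 18, all higher, beside the 4.68% of all genes given above. The list was chosen with earlier results of these data known, so its counts are given as a description and carry no test. Msx2, a homeobox repressor, stood at 2.26 and 1.16 CPM untreated, against 9.04 and 11.3 CPM after dTAG-13, a log2 fold change of 2.55 ± 0.43 (SE). Tbx3, a T-box repressor, was at 11.8 and 11.7 against 22.9 and 21.3 CPM. Bambi, a decoy receptor, was at 14.6 and 11.7 against 22.01 and 22.8 CPM. Dlx5, Gata3 and others of this list also mark surface ectoderm. The 8 surface ectoderm markers, which include both, summed to 93.0 and 195 CPM untreated, against 175 and 443 CPM after dTAG-13, with Krt14 under 1 CPM in all libraries and 7 of 7 tested members higher. Epithelial markers were at 347 and 577 against 625 and 1247 CPM, with 5 of 5 members higher. Gut endoderm markers were at 511 and 443 against 721 and 970 CPM, with 8 of 8 higher. Neural tube markers were at 200.1 and 355 against 139 and 188 CPM, with 7 of 7 lower, and presomitic mesoderm markers at 205 and 221 against 154 and 118 CPM, with 7 of 8 lower. The part of these lists in the response genes or in the members was not tested.

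**Figure D4:**
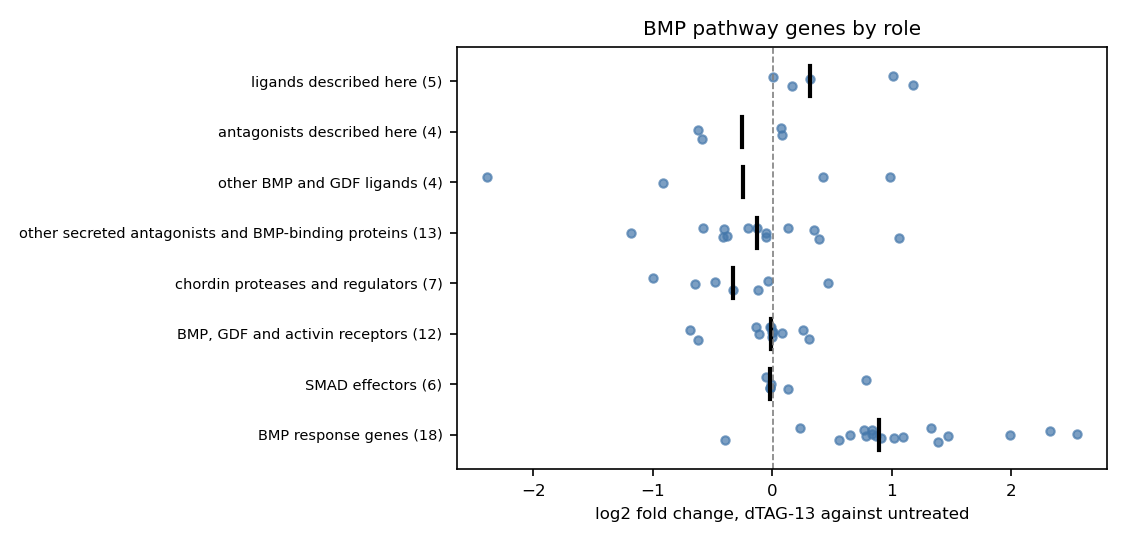
Log2 fold change of each tested gene by its role in the BMP pathway, with the number of genes in brackets, a black bar at the median of each list and a dashed line at the median of all genes tested. The medians of receptors and SMAD effectors lie near 0, with Smad9 the SMAD farthest to the right, and 17 of 18 BMP response genes lie to the right of it.

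The gene whose pattern over the 4 libraries was nearest to that of Bmp2, among 10204 genes at an average log2 CPM of at least 3, was Smad6, an inhibitory SMAD induced by BMP signals. Smad6 stood at 11.4 and 6.41 CPM untreated, against 21.2 and 15.1 CPM after dTAG-13, a root mean square distance of 0.0194 on the log2 scale after each gene was centred on its mean. Only 2 genes came within 0.1 of Bmp2. For Bmp4 the nearest was Hoxd9 at 0.183, and for Chrd it was Phf21b at 0.116, with no gene within 0.1 of either. Fsd1l was nearest to Fst (0.0187, one of 19 genes within 0.1), Cdhr1 to Bmp5 (0.0347) and Pga5 to Grem1 (0.129). Bmp7, Gdf11 and Nog varied little, so many genes came within 0.1 of them (530, 1151 and 2637). Their nearest were Tubb2a, Ppm1g and Zfp111. Such likeness rests on 4 libraries that differ by group and by number, and is given as a description.

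Bmp2, Bmp4, Bmp5 and Grem1 were higher in the libraries numbered 1 in both groups. So were the summed lateral plate and cardiac, endothelial and somite markers. For Bmp2 replicate 1 was 1.82-fold above replicate 2 untreated (95% exact interval 1.46 to 2.29) and 1.36-fold with dTAG-13 (1.17 to 1.59). Lateral plate and cardiac markers were at 70.4 and 106 CPM in number 1 and at 14.0 and 23.5 CPM in number 2, with Tbx5 and Nkx2-5 under 1 CPM in all libraries. Endothelial markers were at 152 and 124 CPM in number 1 and at 37.1 and 44.1 CPM in number 2. Somite markers were at 401 and 279.6 CPM in number 1 and at 261 and 162 CPM in number 2. The part of these lists in the levels of the 4 genes was not tested. Bmp7 and Nog did not share this pattern, with replicate 1 to replicate 2 ratios of 0.984 and 0.982 for Bmp7 and of 0.988 and 1.11 for Nog, untreated and with dTAG-13.

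**Figure D5:**
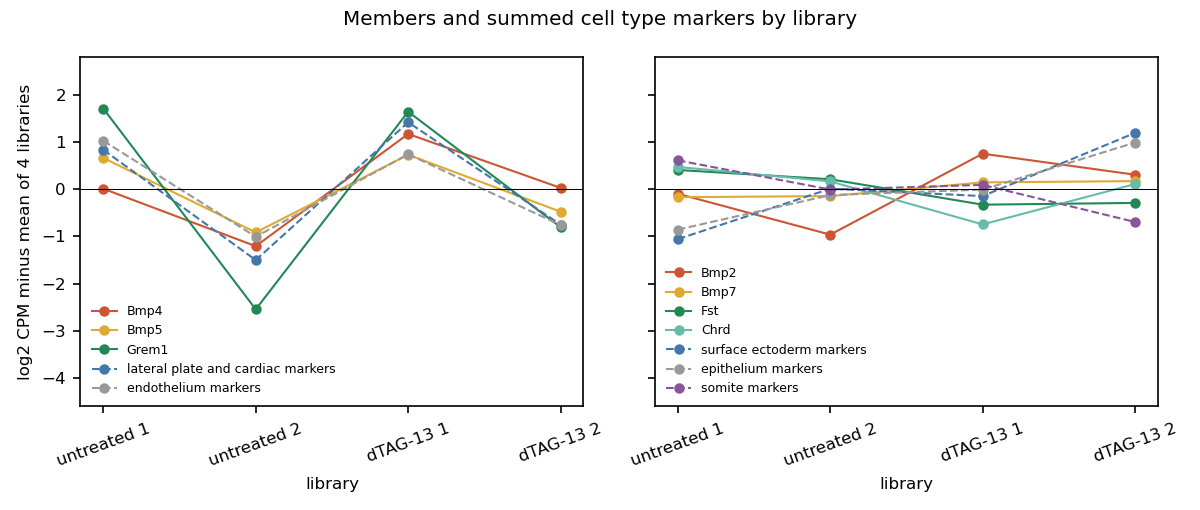
Log2 CPM of named genes (solid lines) and of summed cell type markers (dashed lines), each minus its mean over the 4 libraries. On the left, Bmp4, Bmp5 and Grem1 and the lateral plate and endothelial markers are higher in number 1 than in number 2 of the same group. On the right, Fst and Chrd are lower in each dTAG-13 library than in the untreated library of the same number. Surface ectoderm and epithelial markers are higher there.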

How the data were processed

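The authors deposited unnormalized read counts by gene symbol as whole numbers, in 1 table per library. RNA (250 to 500 ng) was depleted of ribosomal RNA before library preparation, per the labels' protocols. The submitters' processing notes name fastp 0.20.1, STAR 2.7.6a, HTSeq 0.12.4, DESeq2 1.34.0 and 2 build names, GRCm38.p6 and mm10, without roles; annotation and strand setting are not stated. Reads counted outside genes made up 24.1% to 35.7% of each library and were left out.

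Libraries were grouped by title. edgeR 4.0.16 (R 4.3.3) was run on all 4 libraries: filterByExpr (minimum count 10, total 15), TMM factors, robust glmQLFit, and glmQLFTest (two-sided) on the group alone, with Benjamini-Hochberg adjustment over 13602 genes and a threshold of 0.05. Standard errors are the log2 fold change over the square root of F. Log2 CPM values add a prior count of 2. Intervals are exact binomial ones at 95% on 2 libraries' counts; they cover counting error only, since no molecular identifiers are named and reads may be copies of one molecule. CPM per kb divides by the union of GENCODE M21 exons. Coordinates and promoters are RefSeq's for GRCm38.p6; the promoter table held 5 of the 9 genes. The fit was tested on simulated counts. DESeq2 1.42.0, other factors and filters, a term for the replicate number and leaving out each library were tried.

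Members and lists were chosen with earlier results of these data known. Named genes are the members, Zeb2, up to 3 genes per pathway list of smallest p whose average log2 CPM reached 1, and each member's nearest pattern; others were named after their values were seen.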

Additional observations from a re-analysis of the deposited data

How the results depend on the processing

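Over 10 alternatives, 6 of the 9 members kept the sign of their log2 fold change throughout (Bmp2, Bmp4, Bmp7, Nog, Chrd and Fst). Gdf11 turned to -0.0051 with library totals and -0.0088 with at least 50 counts in 2 libraries, and Grem1 to -0.0054 with library totals. Leaving out 1 library gave -0.56 to 1.148 for Bmp5, -0.20 to 0.24 for Gdf11 and -1.59 to 3.34 for Grem1. It gave medians of 0.33 to 1.148 for ligands, -0.72 to -0.19 for antagonists and 0.74 to 1.338 for their difference (0.57 with all libraries). The list medians ran from -0.79 to -0.21 for other ligands, -0.64 to 0.0548 for other antagonists, -0.61 to 0.0884 for chordin proteases, -0.21 to 0.18 for SMADs and 0.33 to 1.455 for BMP responses. With at least 50 counts Grem1 and low genes left the test, and the medians were -0.60 for antagonists, 0.90 for the difference and 0.68 for other ligands. DESeq2 called 26 genes higher and 14 lower, 2 of them BMP responses, where edgeR called 0; the cause was not tested. RLE factors and no filter changed no sign of a member and moved no count by over 1.5 times.

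A replicate block (a term for the number) led edgeR to call 395 genes higher and 241 lower (4.68% of those tested), with 1608 at an unadjusted p under 0.05 against 479. Among the members it called Bmp2 (1.04, adjusted p = 9.08e-07), Bmp4 (1.19, adjusted p = 9.28e-05) and Fst (-0.62, adjusted p = 0.000524). It called 14 BMP responses, 3 other antagonists, 1 other ligand and 1 receptor gene, and the median of other ligands was -0.26. This fit has 1 residual degree of freedom, so its spread is almost wholly borrowed from other genes. The differences between replicates 1 and 2 correlated between the groups across genes (r = 0.631), but the labels do not say that a number marks a shared culture or day, and 2 libraries a group do not settle whether the numbers pair the samples. Grem1, with 2 to 45 counts a library, and Nog, with 66 to 77, are limited by depth.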

Other observations

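Other ligand and antagonist genes of the lists are given as values. Inhba encodes the activin A subunit that follistatin binds. It had only 3 and 1 counts untreated and 11 and 6 with dTAG-13, too few to be tested. These were 0.226 and 0.0890 CPM untreated, against 0.938 and 0.510 CPM after dTAG-13. Cer1, a secreted antagonist of Nodal, BMP and WNT, followed the replicate number, with 49.4 and 34.0 CPM in the libraries numbered 1 (untreated, dTAG-13) and 17.3 and 17.5 CPM in those numbered 2.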
